A study of Mus musculus with 6 samples.

Results

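The genes of respiratory complexes II to V and of cytochrome c were taken by symbol: the succinate dehydrogenase genes Sdha to Sdhd, Cycs, Cyc1, and every symbol that starts with Uqcr, with Atp5, or with Cox followed by 4, 5, 6, 7 or 8. This gave 47 of 12393 named genes, on 86 of 22626 probe sets. Each gene is described by its probe set with the highest mean signal, and the other probe sets were checked against it. The mitochondrial respiratory chain passes electrons to oxygen and uses the energy to pump protons. Complex II oxidises succinate and reduces coenzyme Q, complex III passes the electrons on to cytochrome c, complex IV reduces oxygen, and complex V makes ATP from the proton gradient. Blood stem cells are known for relying largely on glycolysis, and the use of respiration grows as their progeny differentiate.

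The cells were LSK cells, mouse bone marrow cells that lack lineage markers and carry Sca-1 and Kit, sorted by flow cytometry from Gfi1 knockout mice (3 arrays) and from mice wild type for Gfi1 (3 arrays), with no treatment named. Gfi1 is a transcriptional repressor of blood stem and progenitor cells. The samples are numbered 5, 7 and 8 in each group, and the labels give neither the age nor the strain, nor whether a sample is 1 mouse or a pool, so the spread behind each p-value may be technical. RNA was amplified in 2 rounds from 10 ng before hybridisation. The Gfi1 probe set did not read lower in the knockout group. It read 692, 1163 and 1737 on its arrays 5, 7 and 8 and 632, 608 and 723 on wild-type arrays 5, 7 and 8, which differ by 0.76 ± 0.28 on the log2 scale (SE; limma adjusted p = 0.148). The labels do not give the deleted part, and a probe set outside it checks nothing. The group is called knockout-labelled throughout, and every direction rests on the label.

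Most of the respiratory genes were slightly higher on the knockout-labelled arrays, and few passed a test one by one. Of the 45 genes bright enough to be tested, 40 lay above 0 (88.9%), against 48.9% of the 13575 probe sets tested. The 45 genes were brighter, with a median mean signal of 5558 against 868, and shares over all probe sets are not matched for brightness. The median difference was 0.29 on the log2(signal + 16) scale, a 1.22-fold higher signal, against -0.01 over all probe sets tested. 2 genes rose, Cyc1 and Atp5o, and 0 fell (limma, Benjamini-Hochberg adjusted p under 0.05). The call of Atp5o, at an adjusted p of 0.04999, was lost under 13 of 17 alternatives, among them the brightness filter that was applied first. Of all probe sets tested, 1.44% were called higher and 2.19% lower. With an unadjusted p below 0.05 the members numbered 16 higher and 1 lower, and over all probe sets 9.08% were higher and 10.5% lower.

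Every knockout-labelled array lay above every wild-type array for 18 of the 45 genes, and below for 0. Over all probe sets these shares were 11.9% and 12.1%. The count of 18 became 29 without wild-type array 5. Within the number-matched pairs, 36, 40 and 38 of the 45 genes were higher on the knockout-labelled array of pairs 5, 7 and 8, and 32 were higher in all 3 pairs (71.1%, against 21.8% of all probe sets). In a fit that took the sample number as a block (the blocked fit), 7 genes rose and 1 fell, against 2.36% and 3.53% of all probe sets: Cyc1, Atp5o, Cycs, Cox4i1, Cox6b1, Atp5k and Atp5g1 rose and Cox7a2l fell.

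**Figure D1:**
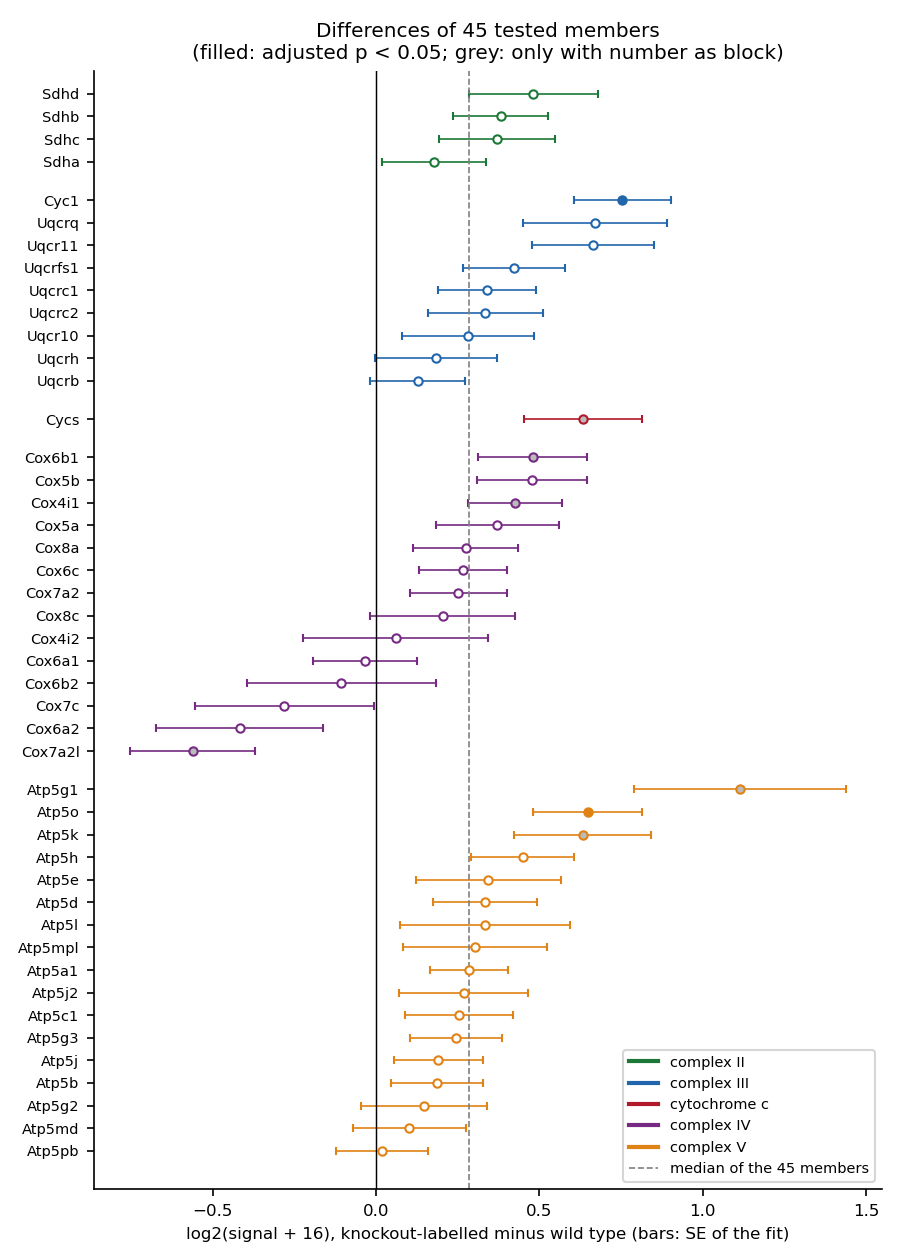
Difference between knockout-labelled and wild-type arrays for each of the 45 tested genes (x axis, log2(signal + 16) scale), grouped by complex (colour), with the standard error of the fit as bars. Filled points passed at an adjusted p under 0.05 (Cyc1 and Atp5o), grey points passed only in the blocked fit, and 40 of the 45 points lie to the right of 0.

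Wild-type array 7 was the lowest of the 6 arrays for 28 of the 45 genes. The median deviation of the 45 genes from their own mean over the 6 arrays was 0.18, 0.07 and 0.16 on knockout-labelled arrays 5, 7 and 8 and -0.08, -0.33 and -0.07 on wild-type arrays 5, 7 and 8. The arrays of the groups did not overlap in this median, and wild-type array 7 stood lowest. Without it the median difference of the members was 0.22, and over all 6 arrays left out in turn it ran from 0.22 to 0.36. The corresponding medians over all probe sets tested stayed between -0.05 and 0.03 on every array.

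**Figure D2:**
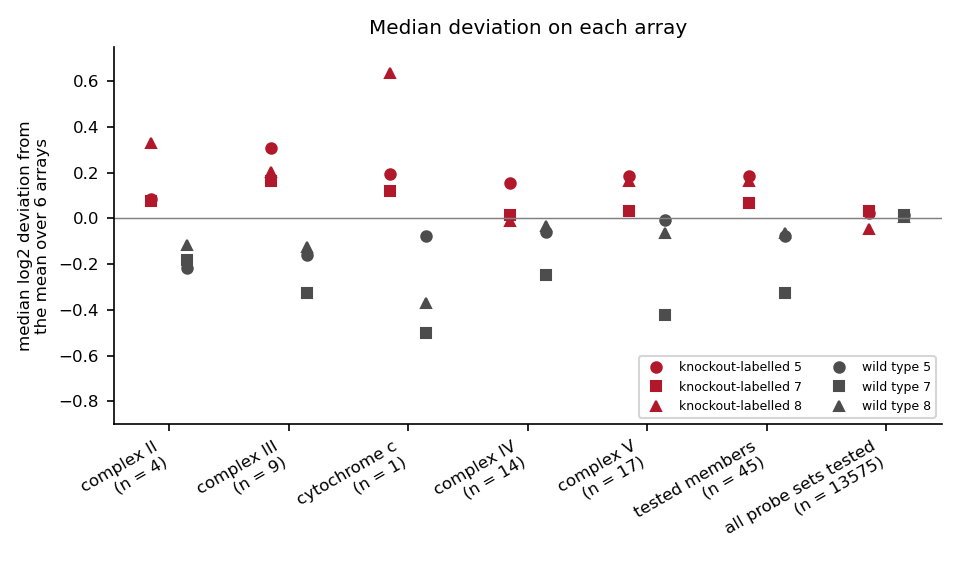
Median deviation of log2(signal + 16) from each gene's mean over the 6 arrays (y axis), for each complex, for all 45 tested genes and for all probe sets tested (x axis). Each point is 1 array (red, knockout-labelled; grey, wild type; shape, sample number), and wild-type array 7 is the lowest point for the 45 genes at -0.33.

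**Figure D3:**
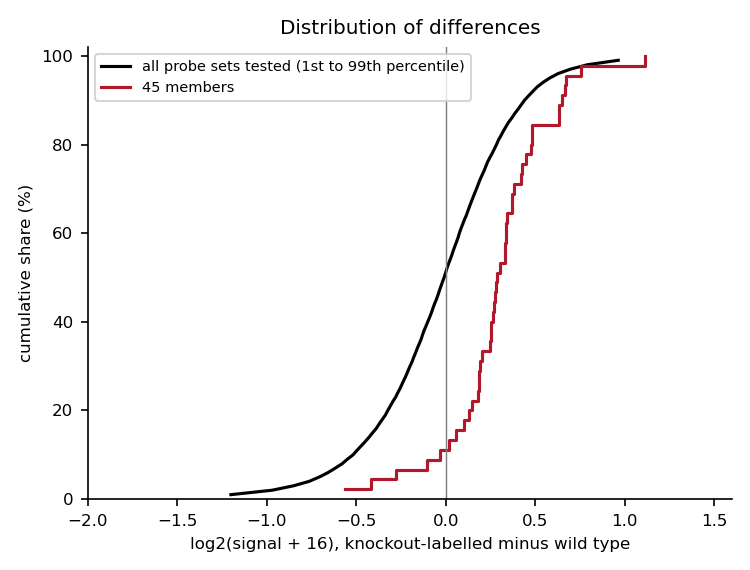
Cumulative share (y axis, %) of genes or probe sets at or below a given log2 difference (x axis, knockout-labelled minus wild type). The curve of the 45 respiratory genes (red) crosses its median at 0.29 and that of all 13575 probe sets tested (black) at -0.01.

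Signals of some cell type markers also moved with the groups, and others overlapped. The summed signal of 12 LSK marker genes was lower on knockout-labelled arrays (45949 to 52945) than on wild-type arrays (62281 to 64403), with 3 of 11 tested members down and 0 up (Hlf, Flt3 and Kit, the receptor by which the cells were sorted), and Erg at or below the level of the Bacillus control probe sets on all arrays. Ly6a, which encodes Sca-1, was on the list of 14 LSK markers of which 12 were measured, and its own signal is not given here. The summed signal of 14 monocyte and macrophage markers was higher (27589 to 36222 against 18097 to 27534), with 3 of 12 tested members up and 0 down, and none was at or below the control level on all arrays. The sums of 10 T and NK cell markers were also higher (4308 to 4494 against 3330 to 3543), with Cd4 at or below the control level. Only 3 were bright enough to be tested, all above 0 with 0 called. Nkg7 (means of 2460 against 1740.5) and Thy1 (946 against 521) did not overlap between groups, and Gzma (325 against 312) did. The sums of 9 erythroid markers were lower (8061 to 9170 against 9566 to 13278), with 5 of 7 tested members below 0 and 0 called, and Hbb-b2 at or below the control level. For 12 neutrophil markers the sums overlapped (36133 to 48068 against 34602 to 55265), with 2 of 11 up and 5 down. Sums of 13 B and plasma cell markers overlapped too (29026 to 44193 against 26613 to 36317), with 0 called and Pax5 at or below the control level. So did those of 6 megakaryocyte markers (2778 to 4546 against 2414 to 4518) and 8 stroma and endothelium markers (2280 to 3168 against 2475 to 3644), with 0 called. Of 8 mast cell and basophil markers 1 of 4 tested rose and 0 fell, with sums of 6085 to 8551 against 3063 to 5697. The part of these cells in the results on respiratory genes was not tested, and in a sorted bulk sample fewer cells of a type and less RNA per cell cannot be told apart.

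In complex II all 4 genes lay above 0, with a median of 0.38, and 0 passed in limma (2 higher and 0 lower with an unadjusted p below 0.05). Sdhb, the iron-sulfur subunit, read 9162, 8354 and 9593 on knockout-labelled arrays 5, 7 and 8 and 7608, 6842 and 6369 on wild-type arrays, a difference of 0.38 ± 0.15 (SE; limma adjusted p = 0.162). Sdhd, a membrane anchor that binds coenzyme Q with Sdhc, read 2683, 2737 and 4219 against 2216, 2380 and 2146, a difference of 0.48 ± 0.20 (adjusted p = 0.192). Neither gene's groups overlapped, and for Sdhd knockout-labelled array 8 stood well above the other 2; without it the difference was 0.27. Sdhc, the second anchor, read 3780, 3578 and 4269 against 3003, 2485 and 3565, with groups that just fail to overlap (0.37 ± 0.18, adjusted p = 0.269). Without wild-type array 7 it stood at 0.24, and its dimmer probe set lay on the other side of 0, at -0.17 ± 0.21. Sdha, the flavoprotein that oxidises succinate, had the smallest difference of the 4, 0.18 ± 0.16.

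Complex III held the clearest change. Cyc1, cytochrome c1, the haem subunit that hands electrons to cytochrome c, read 7941, 8131 and 8072 on knockout-labelled arrays 5, 7 and 8 and 4684, 5347 and 4326 on wild-type arrays. The knockout-labelled arrays lay close together and far above all wild-type arrays, with means of 8048 ± 97.1 and 4786 ± 518 (SD, n = 3 each). Cyc1 rose by 0.75 ± 0.15 on the log2 scale, 1.69-fold (limma adjusted p = 0.0150, and 0.0127 in the blocked fit). It was no longer called without knockout-labelled array 7 (0.0601) or 8 (0.0812) or with eBayes without trend (0.0694), while its difference stayed between 0.68 and 0.84 under all alternatives.

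All 9 genes of complex III lay above 0, with a median of 0.34, and 5 were higher with an unadjusted p below 0.05. Uqcr11, a small subunit, read 2346, 1967 and 1877 against 1234, 1168 and 1491, a difference of 0.66 ± 0.19 without overlap (adjusted p = 0.0684). Uqcrq, another small subunit, read 777, 687 and 962 against 431, 511 and 560, also without overlap (0.67 ± 0.22, adjusted p = 0.113). That probe set is of a less specific type, and the next brightest one of Uqcrq lay on the other side of 0, at -0.06 ± 0.24. Uqcrfs1, the Rieske iron-sulfur protein and the other redox subunit of the nuclear genes, differed by 0.42 ± 0.15 without overlap. The core proteins Uqcrc1 and Uqcrc2 stood at 0.34 each, with overlapping groups. For Uqcrc2 knockout-labelled array 5 (12728) stood above arrays 7 and 8 (8105 and 8946), and its dimmer probe set stood at 0.001 ± 0.149. By the brightest probe sets Uqcrb had the smallest difference at 0.13 ± 0.14. The dimmer probe set of Uqcrb stood at 0.49 ± 0.21, also with overlapping groups.

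Cycs, cytochrome c, which carries electrons from complex III to complex IV and can trigger caspases when released, read 6141, 5829 and 8357 against 5084, 3789 and 4151. The groups did not overlap, and knockout-labelled array 8 was the highest. The difference was 0.63 ± 0.18 (limma adjusted p = 0.0727, and 0.0474 in the blocked fit). Its dimmer probe sets stood at 0.52 ± 0.18 and 0.61 ± 0.22.

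**Figure D4:**
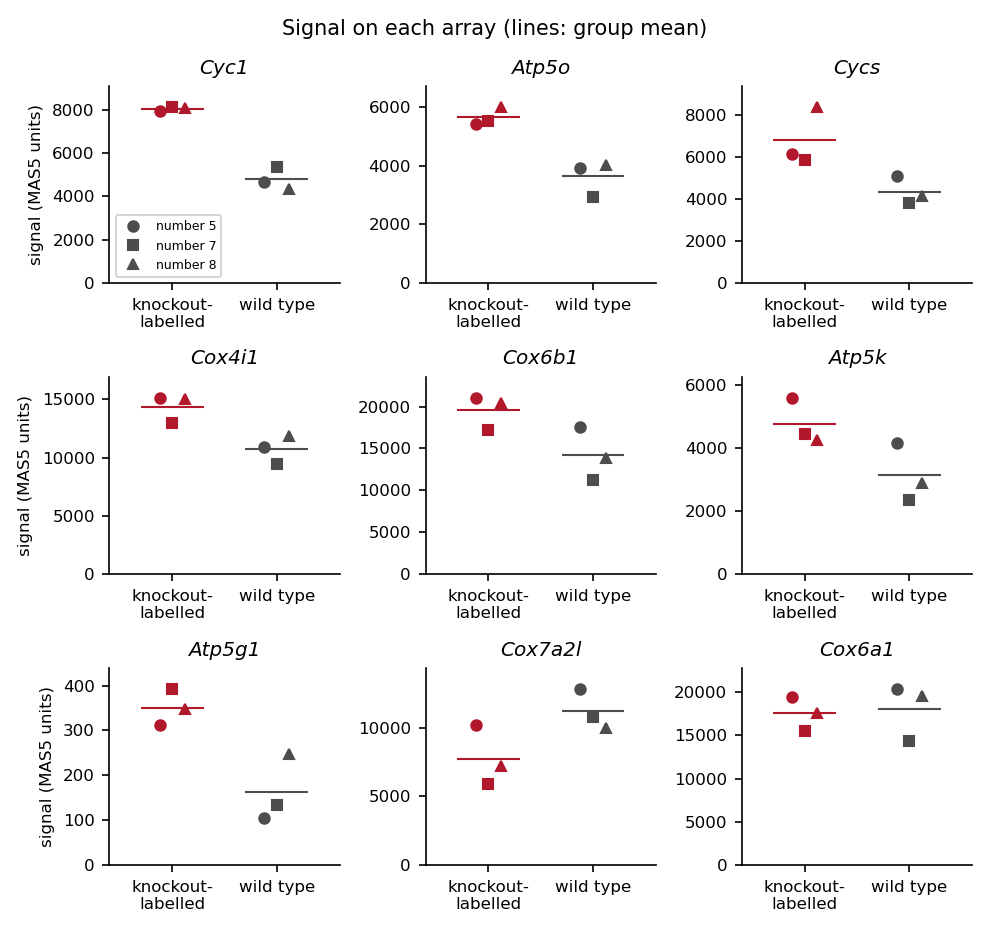
Signal (y axis, MAS5 units, linear from 0) of 9 genes on each of the 6 arrays, by group (x axis), with the sample number as the shape and the group mean as a line. Cyc1 shows 3 knockout-labelled arrays between 7941 and 8131 above wild-type arrays of 4326 to 5347, Cox7a2l lies the other way, and Cox6a1 overlaps.

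Complex IV had genes on both sides of 0. Of its 14 tested genes 9 lay above 0 and 5 below, with a median of 0.23, and 0 passed in limma (3 higher and 1 lower with an unadjusted p below 0.05). In the blocked fit, 2 rose and 1 fell. Cox4i1, the ubiquitous isoform of a regulatory subunit, read 15106, 12963 and 15063 against 10880, 9432 and 11836, without overlap (0.43 ± 0.14, adjusted p = 0.121, blocked 0.0491). Cox6b1, which lies on the side facing cytochrome c, read 21012, 17238 and 20450 against 17560, 11200 and 13884 (0.48 ± 0.17, adjusted p = 0.132, blocked 0.0375). Wild-type array 5 exceeded knockout-labelled array 7, so the groups overlapped, and within each number the knockout-labelled array was higher. Cox5a stood at 0.37 ± 0.19 with overlapping groups (adjusted p = 0.303). Its dimmer probe sets did not overlap between groups. They stood at 0.65 ± 0.18 (adjusted p = 0.0617, and 0.0377 in the blocked fit) and 0.40 ± 0.21 (0.314). Of the 9 ubiquitous subunits 7 lay above 0. Cox6a1 (-0.03 ± 0.16) and Cox7c (-0.28 ± 0.27) did not. The brightest probe set of Cox7c was dim (365 to 856) and of a less specific type. It differed by 0.36, -0.65 and -0.555 in pairs 5, 7 and 8. The sign for Cox6a1 depended on the probe set and the setting: its dimmer probe set stood at 0.38 ± 0.18, with overlapping groups, and its brightest one at 0.02 with median centring.

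Cox7a2l was the gene furthest below 0. It encodes a protein related to the Cox7a subunits that joins complexes III and IV into supercomplexes, and some inbred mouse strains carry a short form of it. Its signals were 10179, 5878 and 7188 on knockout-labelled arrays 5, 7 and 8 and 12828, 10797 and 10000 on wild-type arrays. Knockout-labelled array 5 lay within the wild-type range, and arrays 7 and 8 lay below it. The difference was -0.56 ± 0.19 (limma adjusted p = 0.124), and Cox7a2l fell in the blocked fit (0.0411) and without knockout-labelled array 5 (-0.78, adjusted p = 0.0381). Its other probe sets also lay below 0, at -0.38 ± 0.17 and -0.27 ± 0.15. Its paralogue Cox7a2, the ubiquitous Cox7a subunit, stood at 0.25 ± 0.15, with 25431, 21332 and 22544 against 22111, 15952 and 20570, and at 0.11 without wild-type array 7.

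Complex IV has isoforms for heart, skeletal muscle, lung or testis beside the ubiquitous ones. Of 4 such isoforms tested, 2 lay above and 2 below 0, and 0 passed in limma (0 with an unadjusted p below 0.05). Cox7a1 and Cox8b, the heart and muscle isoforms, were not above the brightest Bacillus control probe set on any of the 6 arrays and were not tested. Their signals were 9.18 to 66.6 and 20.3 to 157. Cox6a2, the other heart and muscle isoform, read 416, 339 and 285 against 580, 457 and 374 (-0.42 ± 0.26). Cox4i2, the lung isoform, stood at 0.06 ± 0.28. The testis isoforms Cox6b2 and Cox8c stood at -0.11 ± 0.29 and 0.20 ± 0.22, with overlapping groups. With 1 array left out the sign turned for Cox4i2 (-0.22 without knockout-labelled array 7), Cox8c (-0.01 without the same array) and Cox6b2 (0.12 without wild-type array 8). Cox8a, the ubiquitous partner of Cox8b and Cox8c, read 10374, 10718 and 11982 against 8702, 7752 and 11150 (0.27 ± 0.16, and 0.16 without wild-type array 7).

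In complex V all 17 tested genes lay above 0, with a median of 0.29; 5 were higher with an unadjusted p below 0.05 and 1 passed. Atp5o, the peripheral stalk subunit that holds the catalytic head in place, read 5447, 5516 and 6007 on knockout-labelled arrays and 3931, 2946 and 4036 on wild-type arrays. The groups did not overlap, with means of 5657 ± 305 and 3638 ± 601 (SD, n = 3 each). Atp5o rose by 0.65 ± 0.17, 1.57-fold (limma adjusted p = 0.04999, just under the threshold, and 0.0331 in the blocked fit). It passed with the brightness filter on the mean log2 value; with the filter on the mean signal, which was run first, it did not (0.0524). The call was also lost with pseudocount 1 (0.0510), quantile (0.0549) or cyclic loess normalization (0.0561), median centring (0.0743), no brightness filter (0.0861) and eBayes without trend (0.131). It was lost without knockout-labelled array 5, 7 or 8 or wild-type array 5 or 7 (0.0963, 0.119, 0.188, 0.0585 and 0.199), and its second probe set stood at 0.76 ± 0.26 (0.131).

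Besides Atp5o, the peripheral stalk genes ranged from 0.45 ± 0.16 for Atp5h to 0.02 ± 0.14 for Atp5pb, whose dimmer probe set stood at 0.38 ± 0.16 without overlap (adjusted p = 0.190). Atp5h read 13606, 10621 and 12339 against 9358, 7518 and 9951, without overlap (adjusted p = 0.133). Its dimmer probe set stood at 0.63 ± 0.18 (0.0775, and 0.0365 in the blocked fit). The 5 genes of the F1 head and central stalk, which hold the catalytic sites and the rotor, lay between 0.19 (Atp5b) and 0.34 (Atp5e), and all 5 were higher in each of the 3 number-matched pairs by their brightest probe sets. Dimmer probe sets of Atp5a1 (-0.04 ± 0.13 and -0.44 ± 0.24) and Atp5c1 (-0.32 ± 0.25) lay below 0.

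Among the small membrane subunits Atp5k, subunit e, which takes part in dimer formation, read 5579, 4437 and 4255 against 4163, 2334 and 2890. The groups did not overlap, although wild-type array 5 came close. The difference was 0.63 ± 0.21 (adjusted p = 0.116), and Atp5k rose in the blocked fit (0.0416) and without wild-type array 5 (0.86, adjusted p = 0.0339). Without wild-type array 7 the difference of Atp5k was 0.44 (adjusted p = 0.364). Its dimmer probe sets stood at 0.30 ± 0.22 (adjusted p = 0.494), with overlapping groups, and at 0.70 ± 0.22 (0.0957); the first is the one left when less specific probe sets are set aside. Atp5md, which is linked to stability of the enzyme, had the smallest difference of this group at 0.10 ± 0.17.

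The c ring, the rotor that turns as protons pass, is encoded by Atp5g1, Atp5g2 and Atp5g3, whose mature proteins are known to be identical. Atp5g1 read 311, 392 and 347 against 105, 134 and 248, with no overlap and a difference of 1.11 ± 0.32 (adjusted p = 0.0775, blocked 0.0482, and 0.0272 without wild-type array 8). It was also the dimmest gene tested, with a mean signal of 256, and on wild-type array 5 it did not exceed the Bacillus control level of 162. Its difference ran from 0.87 without that array to 1.44 without wild-type array 8, and was 0.92 with pseudocount 64. Atp5g3 read 14398, 12151 and 13783 against 12379, 10473 and 11174 (0.24 ± 0.14), and Atp5g2 read 1307, 1065 and 1289 against 1092, 1240 and 974 (0.15 ± 0.19), both with overlapping groups.

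Other genes of mitochondrial energy metabolism were read from the same fit. All 34 complex I subunits tested lay above 0, with a median of 0.32. In limma 0 passed, 12 were higher and 0 lower with an unadjusted p below 0.05, and in the blocked fit 1 rose, Ndufa8 (0.55 ± 0.16, adjusted p = 0.0775, blocked 0.0438). Of 16 genes of the citrate cycle and pyruvate dehydrogenase 15 lay above 0, with a median of 0.36, 0 passed in limma, and 6 were higher and 0 lower with an unadjusted p below 0.05. Mdh2, malate dehydrogenase, stood at 0.46 ± 0.18 and Fh1, fumarase, at 0.39 ± 0.15.

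Coenzyme Q, the carrier between complexes II and III, is made by a pathway of which 7 genes were tested. 6 lay above 0, with a median of 0.35, and 1 rose. Coq3, a methyltransferase of that pathway, rose by 0.90 ± 0.20, with means of 1398 ± 207 against 738 ± 73.6 (SD, n = 3 each; limma adjusted p = 0.0248). Of 28 tested assembly factors of complexes II to V 21 lay above 0, with a median of 0.21, 0 passed in limma, and 5 were higher and 0 lower with an unadjusted p below 0.05. Coa7, an assembly factor of complex IV, stood at 0.67 ± 0.18 (0.0594) and Uqcc2, one of complex III, at 0.60 ± 0.20 (0.106). Of 7 tested genes of ATP export and of partners of the ATP synthase 6 lay above 0, with a median of 0.21, and 0 passed in limma (2 higher and 0 lower with an unadjusted p below 0.05). Vdac2, a channel of the outer membrane, stood at 0.42 ± 0.14.

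The regulators of mitochondrial biogenesis did not lie mainly on 1 side: 7 of 16 tested were above 0 and 9 below, with a median of -0.06, and 0 passed in limma (1 higher and 1 lower with an unadjusted p below 0.05). Tfam, which packages and transcribes mitochondrial DNA, stood at -0.34 ± 0.15 (adjusted p = 0.215). Pprc1, a coactivator of the PGC-1 family, stood at 0.51 ± 0.23 (0.236), and Gabpb1, a subunit of the ETS factor GABP, at -0.32 ± 0.17 (0.342). For 2 of the 16, Tfam and Gabpb1, every knockout-labelled array lay below every wild-type array, and for 1 above. Over all probe sets these shares were 12.1% and 11.9%. Only 1 mitochondrially encoded subunit was measured, ND5 of complex I, with 13025 ± 465 against 14119 ± 543 (SD, n = 3 each) and a difference of -0.12 ± 0.13 (0.686). Its knockout-labelled arrays (12727 to 13561) all lay below its wild-type arrays (13680 to 14727).

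Promoters of nuclear respiratory genes are known for sites of NRF1 and of ETS factors such as GABP, so the members' promoters were searched for their letters. RefSeq promoters of the GRCm38.p6 build, 250 bases before to 50 after a start, were found for 35 of the 47 genes (38 promoters). The NRF1 motif, a GC-rich palindrome searched on both strands, was in 10 of 38 (26.3%), against 4.60% of all 32851 promoters. The ETS letters CCGGAAG, also on either strand, were in 13 (34.2%, against 8.86%), the YY1 letters AANATGGCG in 3 (7.89%, against 2.38%) and the letters AAATCAC of a Gfi1 site in 2 (5.26%, against 3.20%). Member promoters also had a higher median GC content, 56.8% against 52.7%, and a match is a description of the letters only.

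The tested genes with the NRF1 motif had a median difference of 0.30 (10 genes) and those without 0.28 (23 genes). For the ETS letters the medians were 0.34 (13 genes) and 0.26 (20 genes). 4 stretches of 250 bases before the start show the range: Atp5h, Sdhd and Cox6a1 hold both kinds of letters and differ by 0.45, 0.48 and -0.03, and Cox7a2l, the gene furthest below 0, holds neither in this window. Capitals mark the NRF1 motif and the ETS letters on either strand.
Atp5h, chr11:115419920-115420169, strand -: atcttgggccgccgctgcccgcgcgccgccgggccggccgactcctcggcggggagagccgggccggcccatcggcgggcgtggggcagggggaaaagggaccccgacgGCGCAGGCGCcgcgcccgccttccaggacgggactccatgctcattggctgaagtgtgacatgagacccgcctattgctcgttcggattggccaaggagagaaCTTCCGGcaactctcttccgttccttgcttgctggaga
Sdhd, chr9:50603850-50604099, strand -: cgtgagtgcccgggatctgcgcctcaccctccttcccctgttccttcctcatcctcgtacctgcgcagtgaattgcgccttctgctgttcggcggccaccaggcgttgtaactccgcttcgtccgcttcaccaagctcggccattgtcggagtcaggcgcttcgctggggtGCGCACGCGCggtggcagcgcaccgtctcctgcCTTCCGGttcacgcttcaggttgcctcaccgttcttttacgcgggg
Cox6a1, chr5:115348959-115349208, strand -: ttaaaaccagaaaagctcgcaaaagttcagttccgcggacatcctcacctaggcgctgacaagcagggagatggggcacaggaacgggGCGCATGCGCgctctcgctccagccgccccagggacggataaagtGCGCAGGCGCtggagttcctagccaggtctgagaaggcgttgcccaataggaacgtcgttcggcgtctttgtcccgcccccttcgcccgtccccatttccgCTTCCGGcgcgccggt
Cox7a2l, chr17:83514334-83514583, strand -: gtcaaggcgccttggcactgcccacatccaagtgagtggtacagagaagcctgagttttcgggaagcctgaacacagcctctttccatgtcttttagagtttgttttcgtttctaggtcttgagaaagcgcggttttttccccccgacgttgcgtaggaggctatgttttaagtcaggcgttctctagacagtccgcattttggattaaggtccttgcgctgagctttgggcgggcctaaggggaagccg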

How the data were processed

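Gene expression was measured on 6 single-colour Affymetrix arrays, 3 per group. The intensity values deposited by the authors (linear, 1 for each probe set and array) come from MAS5, per the submitters' processing notes. Its version and settings are not stated there, and no detection calls were used. Each array was already scaled, with a trimmed mean of 1000.3 to 1000.4 arbitrary units, a median of 286 to 335 and 67.0% to 74.4% of probe sets above the brightest of 27 Bacillus control probe sets (100.2 to 162). The 3' to 5' signal ratio was 4.30 to 6.11 for Gapdh. Precision is limited by the small number of arrays.

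The 64 AFFX control probe sets of 22690 were left out. In the platform annotation 20380 probe sets had 1 symbol, 691 several and 1555 none. log2(signal + 16) was used without further normalization. The plan named the brightest 60% of probe sets by mean, without saying on which scale. The mean signal was used first; after its calls had been seen, the filter was changed to the mean log2 value, because that gives the call counts of an earlier analysis of these files, and the change added Atp5o to the genes called. Tested were the brightest 60% by mean log2 value (13575; 45 of the 47 genes) with limma 3.58.1 in R 4.3.3 (lmFit, eBayes with trend, all 6 arrays, two-sided), adjusted by Benjamini-Hochberg over all 13575 at 0.05. The added 16 makes folds of dim genes too small. The fit was tested on simulated, unpaired data with changes larger than the median difference of the members. Smaller changes were not simulated.

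Same-numbered samples (5, 7 and 8) had weakly correlated deviations from their group means (0.159, 0.168 and 0.238), and other combinations gave -0.134 to -0.0307. Such deviations cancel out within each group, so positive values for the same numbers push the others below them. The contrast is therefore no separate evidence of pairing. In the blocked fit the numbers were taken to pair the samples, and whether they do was not tested. Named in full were genes past the threshold with or without the block, the 3 with the smallest p in each complex, and isoforms; other genes are named as examples. The members and lists were chosen with earlier results of these data known. Alternatives changed pseudocount, brightness filter, normalization, eBayes trend, block, probe sets and arrays. Protein comparisons between isoforms were planned and not made.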

Additional observations from a re-analysis of the deposited data

How the results depend on the processing

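The median difference of the members stayed above 0 under all 18 alternatives. Its change from the main value stayed below the spread of this median between arrays of a group (SD 0.113). Cyc1 and Atp5o, the 2 genes called higher, became 7 called higher and 1 lower in the blocked fit (the sample number as a block, which pairs the samples), 0 with eBayes without trend, and 1 with pseudocount 1, median centring, quantile or cyclic loess normalization, no brightness filter, the second probe set of each gene, or a brightness filter on the mean signal. That last filter was run first, with Cyc1 as the gene called; it was replaced by the filter on the mean log2 value after the calls had been seen, which brought Atp5o under the threshold, and is kept as an alternative chosen after seeing the data. Without the less specific probe sets 2 genes were called higher. These were Cyc1 and another gene, since the probe sets of Atp5o are all of that type. Over the whole table the calls numbered 196 higher and 297 lower. They became 320 and 479 with the block, 57 and 124 without trend, and 69 and 119 without the filter. With median centring 193 were lower, and without the less specific probe sets 127 were higher. With median centring 1 member was lower without overlap, and the share of all probe sets above 0 was 55.3% instead of 48.9%. With 1 array left out, the median ran from 0.218 to 0.361, the genes above 0 from 38 to 42, the genes called from 0 to 3 higher and from 0 to 1 lower, those without overlap from 18 to 29 higher and from 0 to 2 lower, and the calls over the table from 34 to 266 higher and from 90 to 282 lower. Fits with fewer arrays have less power. Overlap was not counted under quantile or cyclic loess normalization or the block. The cause of these changes was not tested. Signal over background limits Atp5g1, Cox7a1 and Cox8b. The tested isoforms Cox4i2 (252 to 491), Cox6a2 (285 to 580) and Cox6b2 (230 to 390) exceeded the control level on all 6 arrays, and they were dim too.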

Other observations

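Of the 47 genes, 26 had several probe sets, and in 19 of these all probe sets, tested or not, differed in the same direction. In 4 genes a dimmer probe set that was tested lay on the other side of 0 and differed from the brightest one by more than 0.5 on the log2 scale: Atp5a1 (0.29 against -0.44), Atp5c1 (0.25 against -0.32), Sdhc (0.37 against -0.17) and Uqcrq (0.67 against -0.06). An untested probe set of Cox5b, above the control level on 1 array, differed by 0.55, -2.24 and -0.96 in pairs 5, 7 and 8. Which transcripts the dimmer probe sets detect was not tested. Over the 35 tested probe sets that were not the brightest of their gene, 27 lay above 0 and the median was 0.35.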
